A study of Sus scrofa with 12 samples.

Results

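The genes of MHC class II antigen presentation were measured in pig heart, in border zone and remote zone, after ischemia-reperfusion injury. The members were fixed by name, as 10 genes: the swine leukocyte antigen (SLA) genes SLA-DRA, SLA-DRB1, SLA-DQA1, SLA-DQB1, SLA-DMA, SLA-DMB, SLA-DOA and SLA-DOB, with CD74 and CIITA. Of these 10, 8 were paired with an identifier among the 35682 genes of the count tables, and all 8 passed the filter on low counts. SLA-DRB1 and SLA-DQA1 were not paired with an identifier and were not analysed here. SLA-DRA and SLA-DOB were found under the names of their human counterparts, HLA-DRA and HLA-DOB.

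MHC class II molecules are pairs of an alpha and a beta chain that present peptides from endocytosed proteins to CD4+ T cells. They are made mainly by dendritic cells, macrophages and B cells, and by other cells, endothelium among them, once exposed to interferon gamma. CD74, the invariant chain, occupies the peptide groove until proteases of the endosome degrade it. SLA-DM then removes its last fragment and loads peptide, SLA-DO restrains SLA-DM, and CIITA, the class II transactivator, switches on the promoters of the other genes. The heart holds resident macrophages that carry class II molecules.

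The study placed a balloon in the left anterior descending coronary artery of Yorkshire pigs for 60 min. Every animal received tacrolimus at 0.75 mg/kg/day, mycophenolate mofetil at 500 mg/day and prednisolone at 20 mg/day from post-IRI day 9, so that both regions came from immunosuppressed hearts. On post-IRI day 14 the animals were given either vascular organoids, made without a scaffold from human EPCs and SMCs, or fibrin glue. RNA of 6 animals, 1022, 1322, 1323, 1623, 1922 and 3622, was sequenced from the border zone (the section beside the infarct) and from the remote zone (6 libraries each, 1 of each region per animal). The sample labels do not give the treatment of an animal, so the regions were compared over all 6 animals and the treatment was not used. No region of an uninjured heart and no animal free of immunosuppression was analysed here.

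The SLA genes share promoter elements, the X1 box and the Y box, that are bound by the RFX complex and by NF-Y, the factors on which CIITA assembles. These sequences are shown because these elements are where CIITA is known to act on class II genes. Each is the 90 bases from 130 to 41 bases before the transcript start in RefSeq (Sscrofa11.1), read 5′ to 3′ on the strand of the gene, with capitals marking the Y box CTGATTGG or its core ATTGG on either strand (CCAAT on the reverse) and the X1 box core GNNACNGAT.
SLA-DRA: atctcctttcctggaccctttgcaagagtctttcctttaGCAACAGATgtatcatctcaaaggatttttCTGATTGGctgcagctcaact
SLA-DQB1: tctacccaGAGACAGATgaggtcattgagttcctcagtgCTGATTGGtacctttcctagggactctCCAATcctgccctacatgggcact
SLA-DMB: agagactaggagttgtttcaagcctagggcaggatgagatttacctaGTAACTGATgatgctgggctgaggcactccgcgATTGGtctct
SLA-DMA: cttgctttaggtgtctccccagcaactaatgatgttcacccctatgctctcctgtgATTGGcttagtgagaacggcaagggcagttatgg
SLA-DOA: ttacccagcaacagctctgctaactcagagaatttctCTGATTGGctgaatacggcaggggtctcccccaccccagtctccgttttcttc
SLA-DOB: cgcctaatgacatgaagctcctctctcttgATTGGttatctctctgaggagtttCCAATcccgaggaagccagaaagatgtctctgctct
In the genome these are chr7:24824925-24825014 on the plus strand for SLA-DRA and, on the minus strand, chr7:24977279-24977368 for SLA-DQB1, chr7:25125130-25125219 for SLA-DMB, chr7:25137959-25138048 for SLA-DMA, chr7:25182706-25182795 for SLA-DOA and chr7:25037948-25038037 for SLA-DOB. Each lies upstream of the transcript start used for it, and that of SLA-DOB is within the span of the gene, which has a longer transcript.

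Within the window from 250 bases before to 50 bases after the start, CTGATTGG was present in 3 of the 8 members, SLA-DRA, SLA-DQB1 and SLA-DOA, and in 3.77% of 19531 pig promoters. The core ATTGG, which lies within CTGATTGG, was present in 6 of the 8, the SLA genes, and in 34.9% of all promoters. GNNACNGAT was present in SLA-DRA, SLA-DQB1 and SLA-DMB and in 6.28% of all promoters. CTGATTGG together with GNNACNGAT was found in SLA-DRA and SLA-DQB1, 2 of 8, and in 0.328% of all promoters. The start of the X1 core lay 33 bases before that of ATTGG in SLA-DRA and in SLA-DMB, and 34 bases before it in SLA-DQB1. The transcript starts used for CD74 and CIITA, like that of SLA-DOB, lie within the spans of their genes. Promoters at the outer ends of these genes were therefore not covered by the window, and a missing match there says nothing about them. A match of letters is a description of the sequence and was not tested as a binding site.

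The 6 SLA genes lie on chromosome 7 of Sscrofa11.1 between positions 24825037 (SLA-DRA, plus strand) and 25182665 (SLA-DOA, minus strand). CD74 lies at chr2:151402210-151409924 and CIITA at chr3:32171706-32230775, both on the minus strand. The counts were made on a reference genome of 1 pig, and how reads matching several genes were assigned is not given in the sources used here, so levels of SLA-DRA and SLA-DQB1, which belong to families of similar and polymorphic copies, are uncertain to that extent.

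Total counts on genes ran from 15130210 to 31618680 per library. The border zone library of animal 1022 stood apart in its composition, with the lowest summed level of cardiomyocyte genes and the highest of matrix genes. The border zone library of animal 3622 had the lowest total and counts on 28024 genes, against 16932 to 20148 genes in the other 11. Transcript length also moved with the library: the median deviation of transcripts under 1500 bases minus that of transcripts over 6000 bases was 0.99 on the log2 scale in remote 3622 and 0.76 in remote 1322, and -0.77 in border 1022. Values without animal 1022 are given with each member, and those without animals 1322 and 3622 with the comparison by animal.

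CD74 was the most abundant member in every library, and SLA-DOB the least. Per kilobase of the curated RefSeq transcript, the median over the 12 libraries of the normalised read count (CPM, read counts scaled to library size with the TMM factors of edgeR) was 630.5 for CD74, 124.6 for SLA-DRA and 97.2 for SLA-DQB1. CIITA followed at 22.4 CPM per kilobase, SLA-DMB at 17.0, SLA-DMA at 11.3, SLA-DOA at 1.80 and SLA-DOB at 0.711. SLA-DRA and SLA-DQB1 overlapped across libraries on this scale, from 82.3 to 338.0 and from 62.6 to 282.5. CIITA (16.0 to 35.4) likewise overlapped SLA-DMB (9.98 to 61.4). Some places in this order depend on which transcript length was used. With the longest RefSeq transcript of each gene, chosen after the levels were seen, CD74 had a median of 222.6 CPM per kilobase, SLA-DRA 99.4 and SLA-DQB1 97.2, while CIITA, at 5.30, fell below SLA-DMB and SLA-DMA.

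For 7 of the 8 members the fitted level was higher in the border zone. Over the 8 the median log2 fold change was 0.54, beside 0.04 over the 13844 genes tested. Without animal 1022 the median of the 8 was 0.07, beside 0.05 over all genes. None of the 8 passed an adjusted p of 0.05 (0 of 8), whereas 2.06% of all genes tested were called higher in the border zone by edgeR's quasi-likelihood test. At an unadjusted p under 0.05, 1 of 8 passed, SLA-DOA, beside 24.7% of all genes tested. With the animal as a block, 0 of 8 members were called, beside 0.289% of all genes. The border and remote zone values overlapped for all 8 members.

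**Figure D1:**
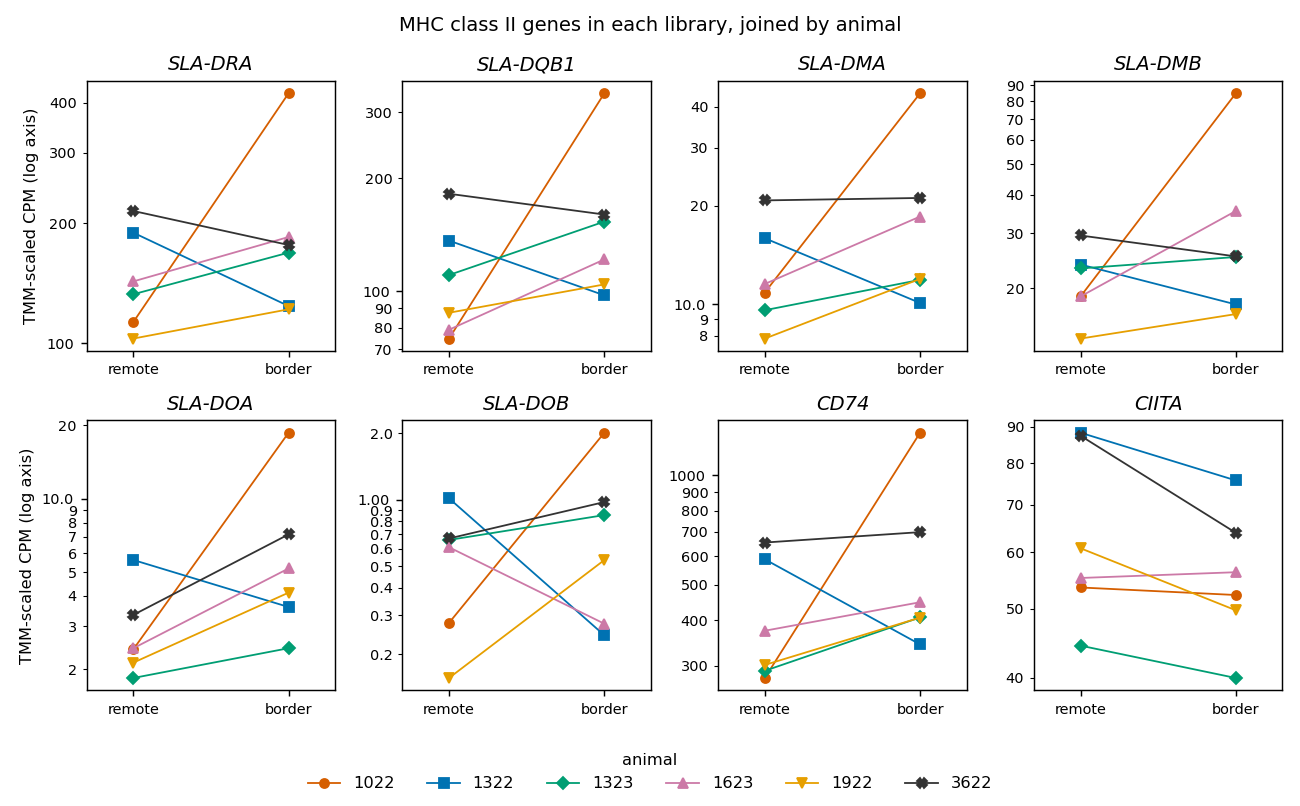
TMM-scaled CPM (log axis, scaled to each gene) of the 8 members in the remote and the border zone of each animal, with 1 point per library and 1 line per animal. For every gene but CIITA the highest point is the border zone of animal 1022, with 1310 CPM for CD74 and 423 CPM for SLA-DRA.

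The chains that form the class II molecule itself were SLA-DRA, the alpha chain of the DR type, and SLA-DQB1, the beta chain of the DQ type. SLA-DRA was at 423 CPM in the border zone of animal 1022, 124 in 1322, 169 in 1323, 185 in 1623, 122 in 1922 and 176 in 3622. In the remote zone it was at 113, 189, 133, 143, 103 and 215 CPM in the same order. The border zone of animal 1022 was therefore high, while the other 5 border libraries lay within the range of the remote libraries. SLA-DRA was higher in the border zone in 4 of 6 animals, and its fitted log2 fold change was 0.42 ± 0.31 (SE, adjusted p = 0.415 by edgeR), with a 95% interval from -0.24 to 1.08. Without both libraries of animal 1022 the value was -0.02.

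SLA-DQB1 ranged from 97.6 to 337 CPM in the border zone, with a median of 138 CPM, and from 74.8 to 182 CPM in the remote zone, with a median of 99.1 CPM. It too was higher in the border zone in 4 of 6 animals, and its highest library was border 1022, at 2.11 times the next border library. The log2 fold change of SLA-DQB1 was 0.54 ± 0.32 (SE, adjusted p = 0.311 by edgeR, 95% interval -0.15 to 1.23), and it was 0.09 without animal 1022.

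CD74, the invariant chain, was at 1310 CPM in the border zone of animal 1022, 343 in 1322, 407 in 1323, 448 in 1623, 406 in 1922 and 698 in 3622. In the remote zone CD74 was at 277, 588, 290, 374, 301 and 654 CPM in the same order. Animals 1322 and 3622 had the highest remote levels, and 1022 the lowest remote level of the 6 beside the highest border level. CD74 was higher in the border zone in 5 of 6 animals, with a log2 fold change of 0.54 ± 0.36 (SE, adjusted p = 0.365 by edgeR, 95% interval -0.23 to 1.31), which was 0.05 without animal 1022.

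SLA-DMA and SLA-DMB, the chains of the peptide exchange factor, were found at lower levels. SLA-DMA ranged from 10.1 to 44.0 CPM in the border zone (median 15.2) and from 7.85 to 20.7 CPM in the remote zone (median 11.2). SLA-DMB ranged from 16.5 to 84.7 CPM in the border zone (median 25.2) and from 13.8 to 29.6 CPM in the remote zone (median 21.0). Both were highest in border 1022, and without that library the border maximum was 21.1 CPM for SLA-DMA and 35.4 CPM for SLA-DMB. The log2 fold change was 0.62 ± 0.36 for SLA-DMA (SE, adjusted p = 0.292 by edgeR, 5 of 6 animals higher in the border zone) and 0.68 ± 0.36 for SLA-DMB (adjusted p = 0.258, 4 of 6 animals). Without animal 1022 these were 0.16 and 0.13.

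SLA-DOA and SLA-DOB, the chains of the factor that restrains SLA-DM, had the lowest levels. SLA-DOA was at 18.7 CPM in the border zone of animal 1022, 3.60 in 1322, 2.44 in 1323, 5.18 in 1623, 4.13 in 1922 and 7.15 in 3622. In the remote zone SLA-DOA was at 2.42, 5.62, 1.84, 2.44, 2.13 and 3.34 CPM in the same order. It was higher in the border zone in 5 animals and lower in 1322, and these values rest on 41 to 565 counts per library. SLA-DOA had the largest log2 fold change of the 8 members, 1.22 ± 0.47 (SE, unadjusted p = 0.0206, adjusted p = 0.140 by edgeR), with a 95% interval from 0.22 to 2.21. With the animal as a block it was 0.97 (adjusted p = 0.162 by edgeR), and without animal 1022 it was 0.54.

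SLA-DOB was near the limit of this depth, with 3 to 61 counts per library. It ranged from 0.244 to 2.02 CPM in the border zone (median 0.694) and from 0.156 to 1.02 CPM in the remote zone (median 0.634). Its log2 fold change was 0.54 ± 0.56 (SE, adjusted p = 0.575 by edgeR), and the 95% interval, from -0.65 to 1.73, left the direction unresolved. Without animal 1022 the value for SLA-DOB was -0.12.

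CIITA was the member whose fitted level was lower in the border zone. It was at 52.2 CPM in the border zone of animal 1022, 75.7 in 1322, 39.9 in 1323, 56.2 in 1623, 49.7 in 1922 and 63.9 in 3622. In the remote zone CIITA was at 53.5, 88.3, 44.4, 55.2, 60.8 and 87.5 CPM in the same order. CIITA was lower in the border zone in 5 of 6 animals, and the border zone of animal 1022, where the other 7 members peaked, was within the range of the other libraries. The log2 fold change was -0.21 ± 0.21 (SE, adjusted p = 0.561 by edgeR, 95% interval -0.65 to 0.24), and it was -0.24 without animal 1022. With the animal as a block it was -0.19 ± 0.12 (SE, adjusted p = 0.297 by edgeR, 95% interval -0.45 to 0.08). CIITA is the member with the longest transcripts, and a correction for transcript length, added after the data were seen, gave -0.64 (adjusted p = 0.193) and, with the animal as a block, -0.57 (adjusted p = 0.0799). That correction used the longest RefSeq transcript of each gene, for CIITA 10505 bases against 2492 in the curated one. Under it the median of all genes with a length moved from 0.04 to -0.13. Scaling by library totals alone gave 0.12, at a setting where the median of all genes moved from 0.04 to 0.32.

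**Figure D2:**
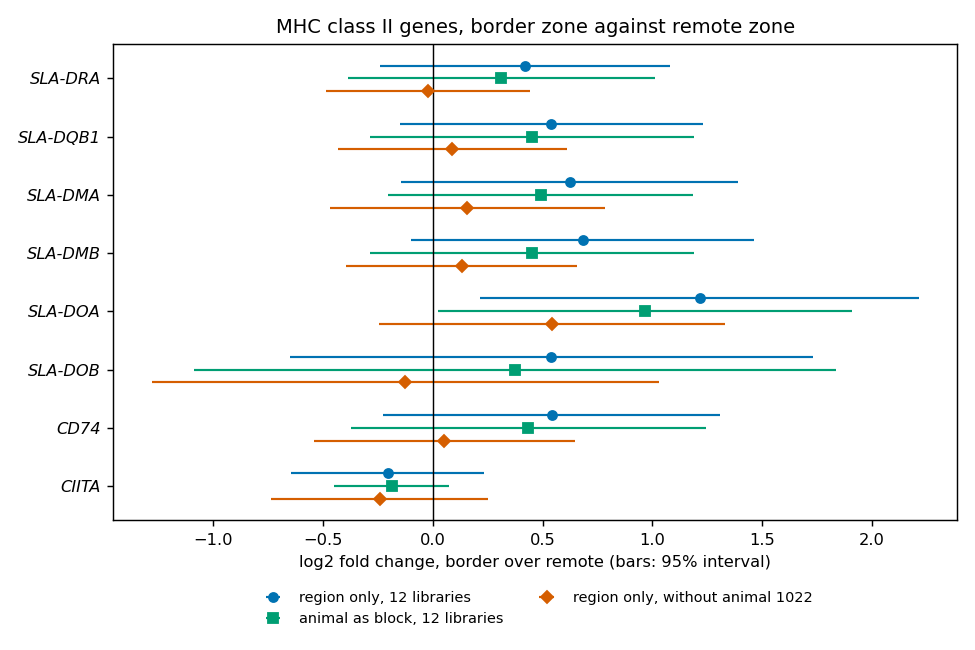
Log2 fold change of each member, border over remote, with its 95% interval, for the fit with region only, the fit with the animal as a block and the fit without animal 1022. In the fit with region only the intervals of 7 genes span 0 and that of SLA-DOA runs from 0.22 to 2.21, while without animal 1022 all 8 intervals span 0.

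Read by animal, the difference between the regions varied in size and in sign. In animal 1022, 7 of 8 members had more RNA in the border zone, and the median difference was 2.17 on the log2 CPM scale. In animal 1322, 0 of 8 were higher, with a median difference of -0.62. Animals 1323, 1623 and 1922 each had 7 of 8 members higher, at medians of 0.34, 0.50 and 0.35, and animal 3622 had 4 of 8, at -0.08. The members of 1 animal share 2 libraries and are not replicates of each other. Border 1022 alone held between 34.6% and 45.3% of the summed border zone CPM of each of the 7 members other than CIITA, and 15.5% of that of CIITA. Without the border zone library of animal 1022 alone, the log2 fold changes were 0.05 for SLA-DRA, 0.18 for SLA-DQB1, 0.14 for CD74 and 0.59 for SLA-DOA. Without the border zone library of animal 3622 they were 0.45 for SLA-DRA, 0.54 for SLA-DQB1 and 0.49 for CD74. Without both libraries of animal 1322 the log2 fold changes were 0.58 for SLA-DRA, 0.75 for CD74 and 1.61 for SLA-DOA (adjusted p = 0.0787 by edgeR). Without those of animal 3622 they were 0.57 for SLA-DRA, 0.65 for CD74 and 0.86 for SLA-DMB (adjusted p = 0.304 by edgeR).

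**Figure D3:**
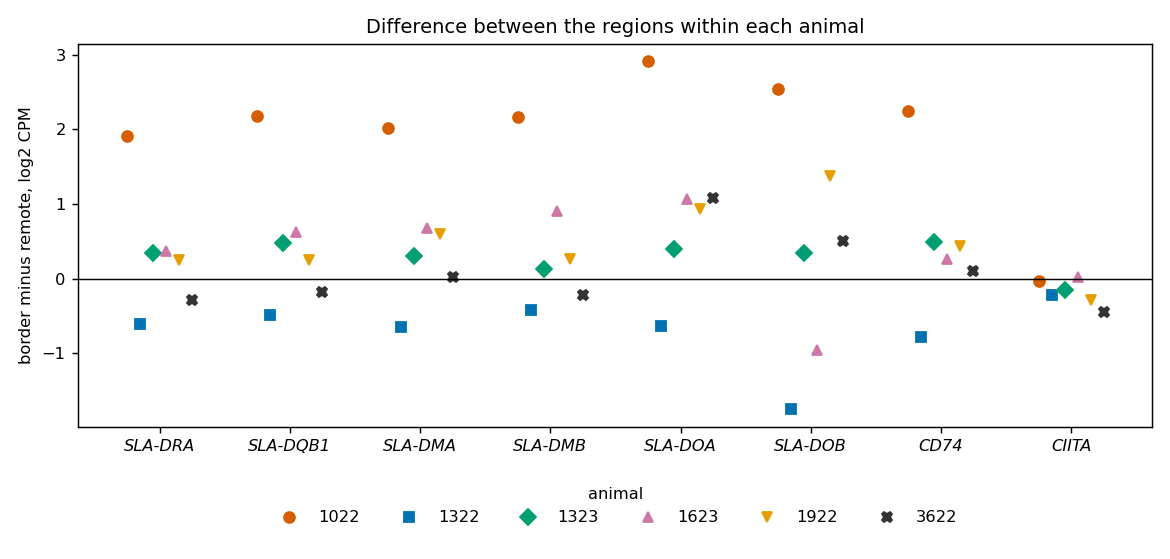
Difference in log2 CPM, border minus remote, of each member in each animal. The 7 members other than CIITA lie between 1.90 and 2.91 in animal 1022 and below 0 in animal 1322, whereas CIITA lies between -0.45 and 0.03 in all 6 animals.

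Ratios of members within a library need no scaling factor, and were compared between the regions by an exact two-sided permutation test over sign changes within the 6 animals, which cannot go below p = 0.03125. Counts of SLA-DOA ranged from 16.1% to 35.4% of those of SLA-DMA in the remote zone and from 20.6% to 42.4% in the border zone. The ratio was higher in the border zone in 6 of 6 animals, from 0.02 in animal 1322 to 1.06 in animal 3622 and by 0.47 on average on the log2 scale (SD of the differences 0.43; exact permutation p = 0.03125, adjusted over 6 ratios 0.09375). SLA-DQB1 to SLA-DRA, a ratio added after the files were seen, was likewise higher in 6 of 6 animals, by 0.15 on average (SD of the differences 0.099; exact permutation p = 0.03125, adjusted 0.09375). Neither passed 0.05 after adjustment.

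CIITA was 12.4% of SLA-DRA by counts in the border zone of animal 1022 and 47.4% in its remote zone. In the other 5 animals it was from 23.7% to 61.0% in the border zone and from 33.4% to 59.1% in the remote zone. The ratio was lower in the border zone in 5 of 6 animals, by 0.52 on average on the log2 scale, with an SD of 0.77 (exact permutation p = 0.125, adjusted 0.1875). Without animal 1022 the mean difference was -0.23, with an SD of 0.37 (exact permutation p = 0.25, adjusted 0.375), and with any other animal left out it ran from -0.70 to -0.51. SLA-DMA to SLA-DRA differed by 0.17 (exact permutation p = 0.125, adjusted 0.1875), SLA-DRA to CD74 by -0.13 (exact permutation p = 0.219, adjusted 0.263) and SLA-DMB to SLA-DMA by -0.03 (exact permutation p = 0.813). With 1 animal left out, the difference of SLA-DRA to CD74 ran from -0.19 without animal 1322 to -0.08 without animal 3622, and was -0.09 without animal 1022.

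The ratio of SLA-DQB1 to SLA-DRA was also compared between animals. In animal 1623 it was 55.3% in the remote zone and 65.9% in the border zone, the lowest of each region, and in animal 1922 it was 85.2% and 85.7%. After centring on the region mean, the libraries of 1 animal differed by 0.076 on the log2 scale, against 0.224 on average over the 720 orders of the animals (one-sided exact permutation p = 0.0167, adjusted over 6 ratios 0.1, not under 0.05). For the other 5 ratios the adjusted p of the same exact permutation test ran from 0.173 to 0.267. Animals can carry different SLA alleles, and whether reads of each allele matched the reference alike was not tested.

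**Figure D4:**
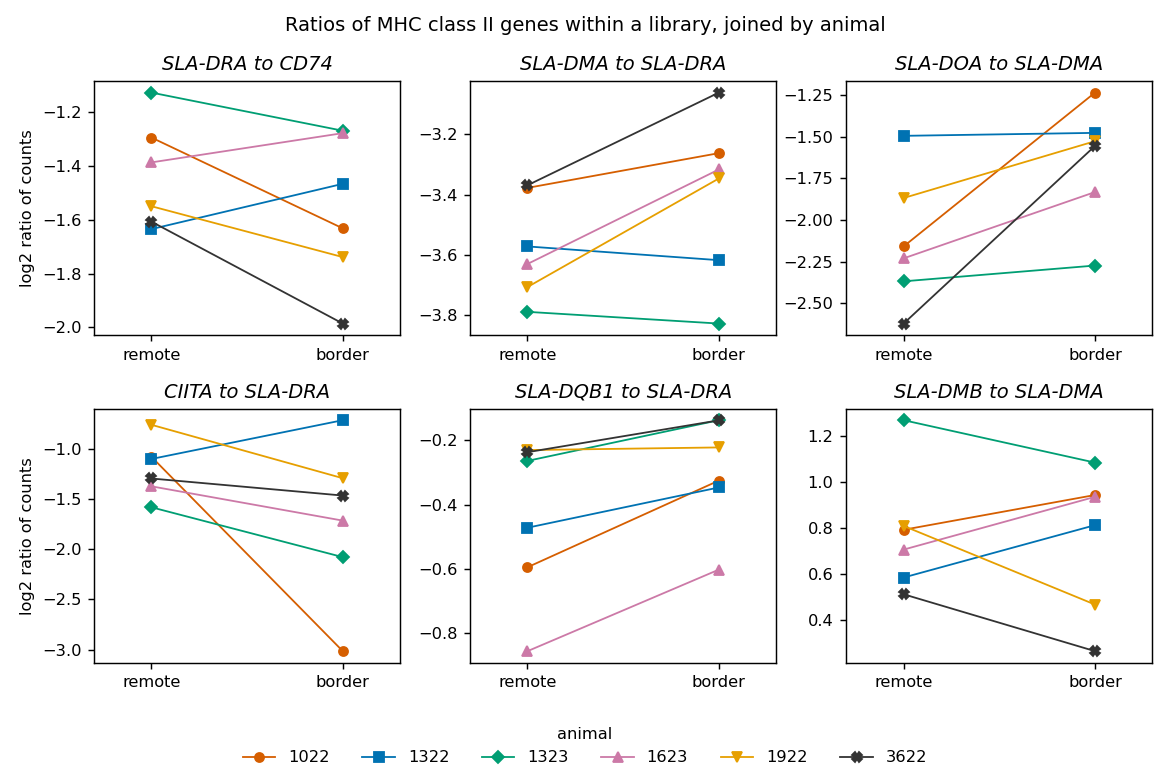
Log2 ratio of the counts of 2 members within a library, in the remote and border zone of each animal. The lines of SLA-DOA to SLA-DMA and of SLA-DQB1 to SLA-DRA are higher at the border end in 6 of 6 animals, and the lowest point for CIITA to SLA-DRA is the border zone of animal 1022.

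Across libraries, SLA-DRA ran close to SLA-DMB (Pearson r = 0.957 in log2 CPM over 12 libraries, 0.878 over the 11 without border 1022) and to SLA-DMA (0.95 and 0.883), and less close to CIITA (0.106 and 0.379). The correlation of CIITA with CD74 was 0.260 over 12 libraries and 0.551 over 11. The correlation of SLA-DRA with CD74 was 0.935 over 12 libraries and 0.853 over 11, and that with SLA-DOA 0.825 and 0.553. Among all genes with a symbol, the 8 most like SLA-DRA over 12 libraries were CST3 (0.969 and 0.918), CNN2, SEC11A (0.962 and 0.964), ACSL5, CYBA, TTLL3, FCER1G and CSTB. Over the 11 libraries the 8 were SEC11A, GLT8D1 (0.954), MYDGF, HMGN1, ASB9, PRELID1, CST3 and MYL6, so that 2 genes, SEC11A and CST3, were in both sets. The 8 most like CD74 were SDF4 (0.986 and 0.971), EVA1B (0.974 and 0.971), TKT, SLC25A17, ARRB2, NAGK, P3H1 and ADA, and over 11 libraries SDF4, EVA1B, EGFL7, ANKRD24, CD247, ARHGEF25, NTAN1 and PLEKHG3. These values describe 12 libraries that share animals, regions and scaling factors, and no p is given.

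Of the 13 genes tested in the list of factors that act on class II promoters, 0 were called by edgeR in either direction, and the median log2 fold change was 0.21, or 0.13 without animal 1022. DESeq2 called 2 of 14, IRF4 (2.39, adjusted p = 0.0403) and NFYC (-0.45, adjusted p = 0.0461). Over all genes DESeq2 called 8.42% higher in the border zone, 1412 of the 16776 to which it gave an adjusted p. The largest edgeR value was that of IRF8, a factor of myeloid and B cells, at 1.14 (adjusted p = 0.184), or 0.78 with the animal as a block (adjusted p = 0.264). IRF8 was at 27.5 CPM in border 1022, at most 8.50 CPM in the other border libraries and at most 6.62 CPM in the remote libraries. RFX5, a DNA-binding subunit of the RFX complex, had 0.57 ± 0.26 (SE, adjusted p = 0.197 by edgeR), and its partner RFXANK had -0.33 ± 0.22 (adjusted p = 0.371). IRF1, an interferon-induced transcription factor, had 0.76 (adjusted p = 0.194). RFXAP was not paired with an identifier.

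Of 12 genes tested for interferon gamma signalling, 1 was called higher and 0 lower, at a list median of 0.41, beside 2.06% of all genes called higher. The gene called was IL18, a cytokine that induces interferon gamma, at 0.486 to 6.11 CPM in the border zone and 0.156 to 0.725 CPM in the remote zone. Its log2 fold change was 2.59 ± 0.62 (SE, adjusted p = 0.0493 by edgeR), it was higher in 6 of 6 animals, and with the animal as a block the adjusted p was 0.0783. With the block 0 of 12 were called, beside 0.289% of all genes called higher. With 1 animal left out in turn and no block, IL18 was called without animal 1322, and 0 genes of this list without any of the other 5. Over all genes these fits called 519 without 1322, 163 without 1022, 15 without 1922, 3 without 1323 and 0 without 1623 or 3622. The list median was 0.43 without 1323, 0.52 without 1623, 0.41 without 1922 and 0.50 without 3622. With the block and without animal 1022 IL18 had 1.79 (adjusted p = 0.0460 by edgeR). The list median was 0.31 without animal 1022 and 0.20 without its border zone library alone. IFNG itself had at most 4 counts in any library and was not tested.

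Among the 20 genes tested for processing and trafficking, 17 had a log2 fold change above 0, and the list median was 0.48. Past the threshold, 3 of 20 were higher and 0 lower in the border zone, beside 2.06% of all genes called higher. The genes called were CTSL (3.08 ± 0.68 SE, adjusted p = 0.0350 by edgeR) and CTSH (2.55 ± 0.61, adjusted p = 0.0489), cysteine proteases of the lysosome, and CD9 (1.88 ± 0.43, adjusted p = 0.0426), a tetraspanin of the cell surface that is not confined to antigen-presenting cells. CTSL was at a low level, 0.146 to 4.86 CPM in the border zone and 0.104 to 0.420 CPM in the remote zone. It had at most 147 counts in a library. With the animal as a block the adjusted p was 0.0798 for CTSL, 0.0864 for CTSH and 0.0814 for CD9, so that 0 of 20 were called, beside 0.289% of all genes called higher. With region only, the count was 0 of 20 without animal 1022, 1323, 1922 or 3622, 0 of 19 without 1623, 4 of 20 without 1322, and 3 of 20 without the border zone library of animal 1022 alone. Over all genes these fits called 163 without 1022, 519 without 1322 and 307 without border 1022. They called 3 without 1323, 15 without 1922 and 0 without 1623 or 3622. The list median was 0.53 without 1323, 0.58 without 1922, 0.52 without 3622 and 0.39 without 1623. With the animal as a block and without animal 1022, 2 of 20 were called, CTSH (1.33, adjusted p = 0.0344 by edgeR) and CD9 (1.19, adjusted p = 0.00683). That fit called 856 of 13831 genes in either direction. The list median was 0.13 without animal 1022 and 0.11 without its border zone library alone, and CTSH was at 356 CPM in that library against at most 79.5 CPM in the other border libraries. DESeq2 called 6 of 20, beside 8.42% of all genes called higher. Scaling by library totals called 8 of 20, beside 11.2% of all genes tested called higher under that scaling (1545 of 13844). CTSS, the protease that trims CD74 in antigen-presenting cells, had 1.71 (adjusted p = 0.0892) and was higher in 6 of 6 animals. IFI30, a thiol reductase of the same compartment, had 2.32 (adjusted p = 0.0637), and MARCHF1, a ligase that removes class II molecules from the surface, had 1.88 (adjusted p = 0.0817). In border 1022 these were at 193.5, 117 and 16.1 CPM, and the highest of the other border libraries were at 57.7, 21.4 and 4.33 CPM.

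Class I presentation and T cell contact gave 0 calls by edgeR among 13 and 8 genes tested. For T cell contact DESeq2 called 2 of 13, CD274 (2.07, adjusted p = 0.0362) and TNFSF4 (2.05, adjusted p = 0.0446), beside 8.42% of all genes called higher. Scaling by library totals called 3 of 8, CD40, TNFSF4 and ICAM1, beside 11.2% of all genes called higher. B2M, the light chain of class I molecules, had a log2 fold change of 0.20 (adjusted p = 0.705 by edgeR) and NLRC5, the transactivator of class I genes, 0.46 (adjusted p = 0.359). CD86, a costimulatory ligand, had 1.44 (adjusted p = 0.141) and reached 33.6 CPM in border 1022, against at most 12.7 CPM in the other border libraries. The list medians were 0.27 for class I presentation and 0.96 for T cell contact, and 0.13 and 0.55 without animal 1022. SLA-1 was not paired with an identifier.

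In bulk tissue, fewer cells of a type and less RNA per cell cannot be told apart, so the markers of the cells that carry class II molecules are given beside the members. All 14 macrophage genes tested had a log2 fold change above 0, with a median of 1.49, and 0 of 14 were called by edgeR. DESeq2 called 6 of 13, CD68 and CD163 among them, and scaling by library totals 10 of 14, all higher in the border zone, beside the 8.42% and 11.2% of all genes that these fits called higher. Without animal 1022 the median was 0.62, with 0 of 14 called. The summed level of the macrophage list was 2019 CPM in border 1022, between 173 and 487 CPM in the other border libraries, and between 155 and 319 CPM in the remote libraries. CD68, a macrophage glycoprotein of the lysosome, was at 143 CPM in border 1022 and at most 18.4 CPM in the other border libraries, with a log2 fold change of 3.20 (adjusted p = 0.0637 by edgeR). CSF1R, the receptor for the macrophage growth factor, had 1.63 (adjusted p = 0.0969) and CD163, a scavenger receptor, 1.73 (adjusted p = 0.108). Of the list, MARCO was at 0 in at least 6 libraries.

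The summed B cell list was at 43.2 CPM in border 1022, from 4.72 to 16.0 CPM in the other border libraries and from 5.15 to 7.82 CPM in the remote zone. Of its 3 genes tested 0 were called by edgeR (BANK1 was called with library totals), and MS4A1 and CD79A, defining B cell genes, did not pass the filter. The T cell list was at 39.95 CPM in border 1022, from 9.01 to 33.9 CPM in the other border libraries and from 8.63 to 16.1 CPM in the remote zone, with 0 of 9 called and a log2 fold change of 0.54 for CD3E (adjusted p = 0.463 by edgeR). The dendritic cell list was at 244 CPM in border 1022, from 82.6 to 117 CPM in the other border libraries and from 60.7 to 89.0 CPM in the remote zone, and FLT3 did not pass the filter. Of its 6 genes tested 0 were called by edgeR, while DESeq2 called CCR7 (2.34, adjusted p = 0.0438) and scaling by library totals FSCN1 (1.35, adjusted p = 0.0335). Without animal 1022 the medians fell from 0.78 to 0.37 for the dendritic cell list and from 0.62 to 0.38 for the T cell list. That of the B cell list fell from 1.45 (3 genes tested) to 0.51 (4 genes tested). Endothelial genes, at 472 to 670 CPM in the border zone and 357 to 824 CPM in the remote zone, had a median of 0.12 with 0 of 12 called by edgeR (PECAM1 0.17, CDH5 0.16). The endothelial median was -0.05 without animal 1022 and -0.23 with the length correction.

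Of 11 fibroblast and matrix genes tested, 11 had a log2 fold change above 0, with a median of 2.93. In the border zone 9 of 11 were called higher, beside 2.06% of all genes. Without animal 1022, 8 of 11 were called, beside 163 of 13831 genes in either direction. The count was 9 of 11 without animal 1322, 7 of 11 without border 3622, and 0 of 11 without animal 1323, 1623, 1922 or 3622, where the medians ran from 2.95 to 3.21. Over all genes these fits called 519 without 1322 and 156 without border 3622. They called 3 without 1323, 15 without 1922 and 0 without 1623 or 3622. DESeq2 called 10 of the 10 to which it gave a p, beside 8.42% of all genes called higher, and gave none to FN1. The largest rises were FN1, which encodes fibronectin (5.09), COL1A1, a chain of type I collagen (4.05), and POSTN, which encodes periostin (3.44). In border 1022 they were at 7553, 30500 and 972.8 CPM, and the highest of the other border libraries were at 532.3, 4009 and 205.9 CPM. With the animal as a block they were at 3.20, 2.82 and 2.78, and POSTN was the 1 gene of the list called (adjusted p = 0.0410 by edgeR), beside 0.289% of all genes called higher. With the block and without animal 1022 they were at 2.65, 2.24 and 2.46, so that POSTN stood above COL1A1, and 9 of 11 were called. That fit called 856 of 13831 genes in either direction. With the block and any other animal left out, 0 of 11 were called. Over all genes those fits called 51 without 1322, 10 without 1323 and 0 without 1623, 1922 or 3622. Their list medians ran from 2.17 to 2.57, against 2.26 with the block and all animals. The list summed to 70050 CPM in border 1022, 3261 to 12020 CPM in the other border libraries and 1121 to 2780 CPM in the remote libraries. Cardiomyocyte genes had a median of -0.46, or -0.26 without animal 1022, with 0 of 12 called by edgeR. DESeq2 called TNNI3 lower (-1.16, adjusted p = 0.0489), library totals NPPA higher (2.55, adjusted p = 0.0416), and edgeR with the animal as a block and without animal 1022 called TNNI3 lower (-0.95, adjusted p = 0.0435). The list summed to 13270 CPM in border 1022, to between 44940 and 69400 CPM in the other border libraries, and to between 58520 and 97970 CPM in the remote libraries, whose labelled tissue is heart. For the cardiomyocyte list the summed ranges of the border and remote zones overlapped with and without border 1022, and for the matrix list they did not. The part of tissue composition in the levels of the class II genes was not tested.

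**Figure D5:**
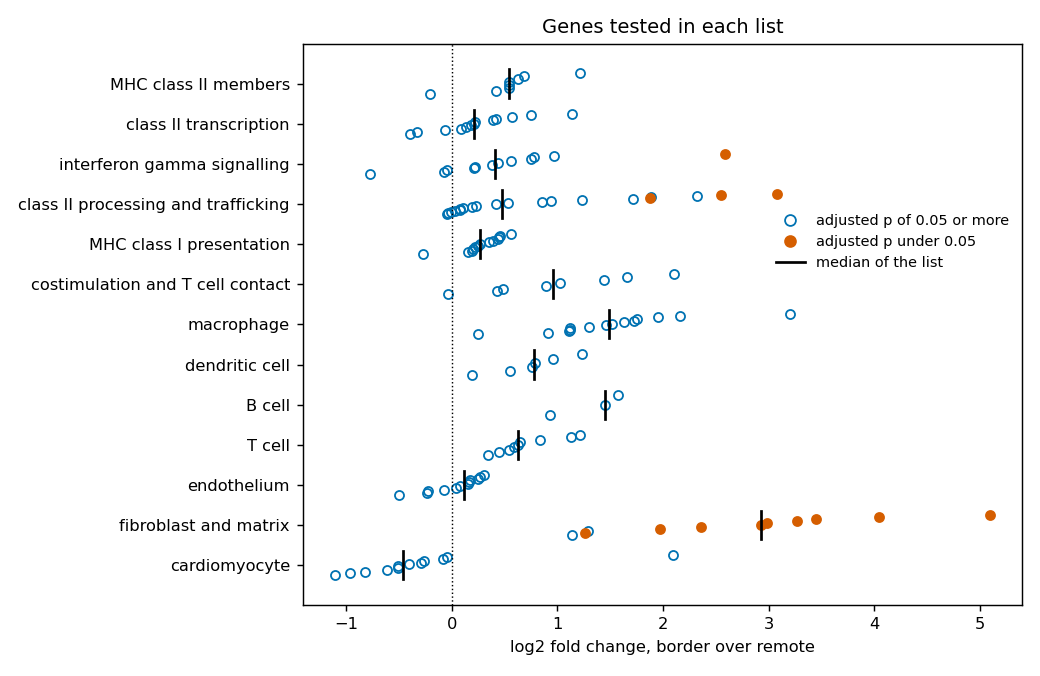
Log2 fold change, border over remote, of each gene tested in the 13 lists, with filled points for an adjusted p under 0.05 and a bar at the median of each list. The class II members have no filled point and a median of 0.54, below that of the macrophage list (1.49) and the matrix list (2.93); without animal 1022 the 3 medians are 0.07, 0.62 and 1.81.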

How the data were processed

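RNA was measured in 12 libraries of 6 pigs, 1 per animal and region. The values deposited by the authors are whole-number read counts per gene and library, not normalized. Per the paper's methods the libraries were poly(A)-enriched and nondirectional, reads were aligned to Sscrofa11.1 with STAR and counted with featureCounts, and quality was checked with FastQC and MultiQC. The setting for reads that match several genes is not given in the sources used here. Reads of overlapping genes on opposite strands cannot be told apart in such libraries, and PCR duplicates could not be separated from independent molecules. The deposited counts summed to between 15130210 and 31618680 per library.

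The titles of the samples gave the region and the animal. The text on RNA extraction in the labels names the border zone alone for all 12 samples, so that the remote zone rests on the titles of 6 samples and the paper's account of the tissues. The members and gene lists were chosen with earlier results of these data known. Symbols came from a table that paired 15623 of the 35682 identifiers. Software was edgeR 4.0.16, DESeq2 1.42.0 and limma 3.58.1 under R 4.3.3. Tables, exact tests, sequences and figures were made under Python 3.11.15 using SciPy 1.17.1, NumPy 2.4.6, pandas 2.3.3, pysam 0.24.0 and matplotlib 3.10.9. Genes were kept by filterByExpr (13844 genes), scaled by TMM, and compared by the robust quasi-likelihood test of edgeR, in which region was the term, with Benjamini-Hochberg adjustment over all genes tested. Standard errors were obtained from the log2 fold change and the F of its test, and intervals are 95% on the degrees of freedom of the fit. Log2 CPM values used a prior count of 2. Ratios used counts plus 0.5 and were tested by exact permutation where both genes had at least 10 counts in every library. Of the 6 ratios planned, 4 could be tested, and 2 were added after the files were seen. The code was tested on simulated data. Animals are separate replicates. The paper compared organoid and control animals, in equal numbers, by RNA sequencing of the border zone. Each region therefore holds both treatments, and the labels do not tell which animal had which.

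The libraries were paired by animal number, since a number marks 1 animal. Deviations from the region means correlated across genes within an animal with a mean r of 0.345 (lowest -0.03, animal 1022, and highest 0.572, animal 1323), above 0.1 in 4 of 6 animals.

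The genes named are the members, up to 3 called genes per direction with the largest change in each list, a set of genes listed by name (the RFX subunits, IFNG, IRF1, CTSS, IFI30, MARCHF1, B2M, SLA-1, NLRC5, CD86, CD68, CD163, CSF1R, FLT3, MS4A1, CD79A, CD3E, PECAM1 and CDH5), and the 8 genes most correlated with SLA-DRA and with CD74. MARCO, IRF4, IRF8, NFYC, CD274, TNFSF4, CD40, ICAM1, BANK1, CCR7, FSCN1, TNNI3 and NPPA were named after their values were seen, as were the correlated genes over 11 libraries. Of the set listed by name, 1 further gene is not reported here. Promoter windows ran from 250 bases before to 50 bases after the RefSeq transcript start. Alternatives were the animal as a block, the Wald test of DESeq2, scaling by its size factors or by totals, a minimum of 10 counts in every library, no filter on low counts, each animal left out, and 1 border library left out. A correction for transcript length, on the 10878 genes with a RefSeq length, the lengths of the longest transcripts and the correlations without border 1022 were added after the data were seen.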

Additional observations from a re-analysis of the deposited data

Results flagged for a closer look

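The border zone library of animal 1022 lay far above the other border zone libraries for SLA-DRA. Its log2 CPM was 8.72, and the nearest of the other 5 was 7.53, a gap of 0.67 of the whole range of the region by Dixon's criterion at the 95% level. This was the 1 value flagged in 28 groups of 6 libraries, and chance flags about 1 in 20 groups. Border 1022 was also the highest border library for SLA-DQB1, SLA-DMA, SLA-DMB, SLA-DOA, SLA-DOB and CD74, at 1.88 to 2.61 times the next, without passing the criterion. Whether the tissue sampled in that animal differed from that of the others was not tested.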

How the results depend on the processing

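The count of members called was 0 under every alternative run (of 7 members with at least 10 counts in every library, which leaves out SLA-DOB, and of 8 otherwise) except scaling by library totals, which called 1, SLA-DOA (1.63, adjusted p = 0.0478 by edgeR). Under that scaling CIITA was at 0.118. The replicate block changed no member's call, with SLA-DOA at 0.97 and CD74 at 0.43. Without animal 1022, SLA-DRA was at -0.0213 and SLA-DOB at -0.125, or -0.147 with the block. With 1 animal left out, SLA-DRA ranged from -0.0213 to 0.576 and SLA-DOB from -0.147 to 0.948. Of 183 fitted member values under the alternatives, 178 did not change direction or call. The log2 ratio of SLA-DMB to SLA-DMA ranged from -0.0793 to 0.0355 with 1 animal left out. Over all genes, 287 were called with region only, 41 with the replicate block, 1719 by DESeq2 (1412 higher, 307 lower), 1551 with library totals, 139 with no filter, 149 with at least 10 counts in every library, 166 with the length correction (375 on the same genes without it) and 21 with that correction and the block. With animals left out the count ranged from 0 to 856. It was 163 without animal 1022 (856 with the block), 519 without 1322 (51 with the block), 3 without 1323, 15 without 1922, and 0 without 1623 or 3622, where edgeR gave 2662 and 2448 genes an unadjusted p under 0.05 (DESeq2 was not run on these subsets). It was 156 without border 3622. The cause was not tested. At 3 to 61 counts per library, depth limits what can be said of SLA-DOB.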
